A study of Mus musculus with 5 samples.

Results

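Transcripts of 8 genes of bone matrix (Bglap, Col1a1, Col1a2, Spp1, Sparc, Ibsp, Postn and Serpine2) were followed through every deposited barcode of 5 droplet RNA libraries of sorted mouse marrow cells. They are 8 of the 27998 genes counted. They were chosen by name as genes of bone matrix, and selected on their UMI counts in these libraries, which were already known, so their own differences between ages are given as descriptions without a test. All 8 had a row in each table. The question was whether their molecules sat in a few bone-forming cells or were spread thinly over the B-lineage cells that fill these libraries.

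The libraries were aged replicates 2 and 3, from mice over 20 months old, and young replicates 1, 2 and 3, from mice of 10 to 12 weeks. All mice, young and aged, were of the Nes-GFP strain, in which regulatory sequence of Nestin drives a green fluorescent reporter. Cells lacking CD45, which marks most blood cells, and bearing CD31, the endothelial junction protein encoded by Pecam1, were sorted from endosteal preparations, kept frozen, thawed and run on a droplet system that counts the 3′ ends of RNA molecules. A UMI (unique molecular identifier) stands for 1 counted molecule, and a barcode for 1 droplet, which is usually but not always 1 cell. How many animals gave each library is not given in the sources used here.

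Osteoblasts are the cells that lay down bone. They secrete type I collagen, whose chains are encoded by Col1a1 and Col1a2, and embed in it osteocalcin (Bglap), osteopontin (Spp1), bone sialoprotein (Ibsp) and osteonectin (Sparc), proteins that bind mineral, collagen or cells. Periostin (Postn) cross-links matrix in periosteum and other connective tissue, and Serpine2 (protease nexin) inhibits thrombin and plasminogen activators. Some of the 8 are made elsewhere too: endothelium transcribes Sparc, and macrophages and other blood cells can transcribe Spp1.

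Bglap and Spp1 are both textbook targets of RUNX2, the transcription factor that osteoblasts need to form. Their promoters are shown because Bglap was scarce and Spp1 abundant in the 1 matrix-rich droplet of the aged libraries. The sequences are the 250 bases before the annotated start, from RefSeq (GRCm38.p6), written 5′ to 3′ on the gene's strand, with the Runx core letters ACCACA in capitals. The Bglap promoter lies on the minus strand at chr3:88384467-88384716, and the Spp1 promoter on the plus strand at chr5:104434861-104435110.
Bglap: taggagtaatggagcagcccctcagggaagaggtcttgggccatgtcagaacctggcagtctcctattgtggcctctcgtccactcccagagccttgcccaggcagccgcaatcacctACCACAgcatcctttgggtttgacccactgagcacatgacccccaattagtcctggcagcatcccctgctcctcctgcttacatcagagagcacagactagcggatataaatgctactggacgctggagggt
Spp1: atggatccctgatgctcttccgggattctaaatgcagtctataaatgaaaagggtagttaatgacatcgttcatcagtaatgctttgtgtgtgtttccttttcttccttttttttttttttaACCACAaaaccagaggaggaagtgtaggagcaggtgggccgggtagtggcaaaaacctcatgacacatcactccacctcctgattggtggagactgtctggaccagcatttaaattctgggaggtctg
The letters ACCACA or their reverse complement TGTGGT occurred in 14.1% of 32841 promoters of this length, and in 2 of the 7 members present in the promoter table. The first share counts promoters and the second genes, some of which have more than 1 promoter. A second Spp1 promoter, at chr5:104435942-104436191, had 0 matches. The match began 132 bases before the start of Bglap and 128 bases before that of Spp1. A match is a run of letters, and binding was not measured.

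Bglap has near copies beside it on chromosome 3, Bglap2 and Bglap3. The last 100 bases of the Bglap and Bglap2 transcripts were identical, and those of Bglap and Bglap3 shared 98 of 100. Counts near the 3′ end can therefore be divided among them uncertainly, and the copies are given beside Bglap where they matter. Ibsp and Spp1 also lie on the same chromosome, 5, at 104299171 to 104311469 and 104435118 to 104441050 (GRCm38).

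The libraries held 385 and 922 barcodes in aged replicates 2 and 3 and 1002, 329 and 746 in young replicates 1, 2 and 3. Their total counts ranged from 935656 to 5900751 UMIs, with median depths per barcode of 827.5 to 3936.5 UMIs, young replicate 1 being the deepest. Barcodes under 500 genes or 1000 UMIs numbered 100 and 494 in aged replicates 2 and 3, and 0, 89 and 412 in young replicates 1, 2 and 3. At least 2 of 10 B-lineage markers were found in barcodes that held 98.9% and 96.1% of all UMIs in aged replicates 2 and 3, and 96.8%, 97.3% and 96.8% in young replicates 1, 2 and 3. The endothelial cells named by the sort were few: 40 of 3384 barcodes had at least 3 of 10 endothelial markers, and Cdh5, a defining one, was found in 0.304% to 1.30% of barcodes per library. Of 3358 distinct barcode sequences, 26 occurred in 2 libraries, and their barcodes held 16 member UMIs. Aged and young replicate 2 shared 11 of these, and aged and young replicate 3 shared 9.

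Almost all bone matrix molecules sat in very few droplets. The 5 libraries together held 12954 UMIs of the 8 genes, in 417 of 3384 barcodes. A barcode was called matrix-rich when it held at least 10 UMIs of the members other than Sparc, a limit set after the values were seen. Only 11 barcodes reached it, 0.325% of all barcodes with 0.414% of all UMIs, and they held 12263 member UMIs, 94.7% of the total. The lowest of them had 15 such UMIs and the highest barcode outside had 8. With a limit of 5, 20 or 100 UMIs there were 18, 9 or 6 such barcodes, holding 95.1%, 94.4% or 93.5% of member UMIs.

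The matrix-rich barcodes were unevenly divided among libraries. Aged replicate 2 had 0 of them among 385 barcodes and aged replicate 3 had 1. Young replicates 1, 2 and 3 had 1, 8 and 1. Both groups thus contained a library in which few or no such barcodes were found, and young replicate 2 held 8 of the 11.

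**Figure D1:**
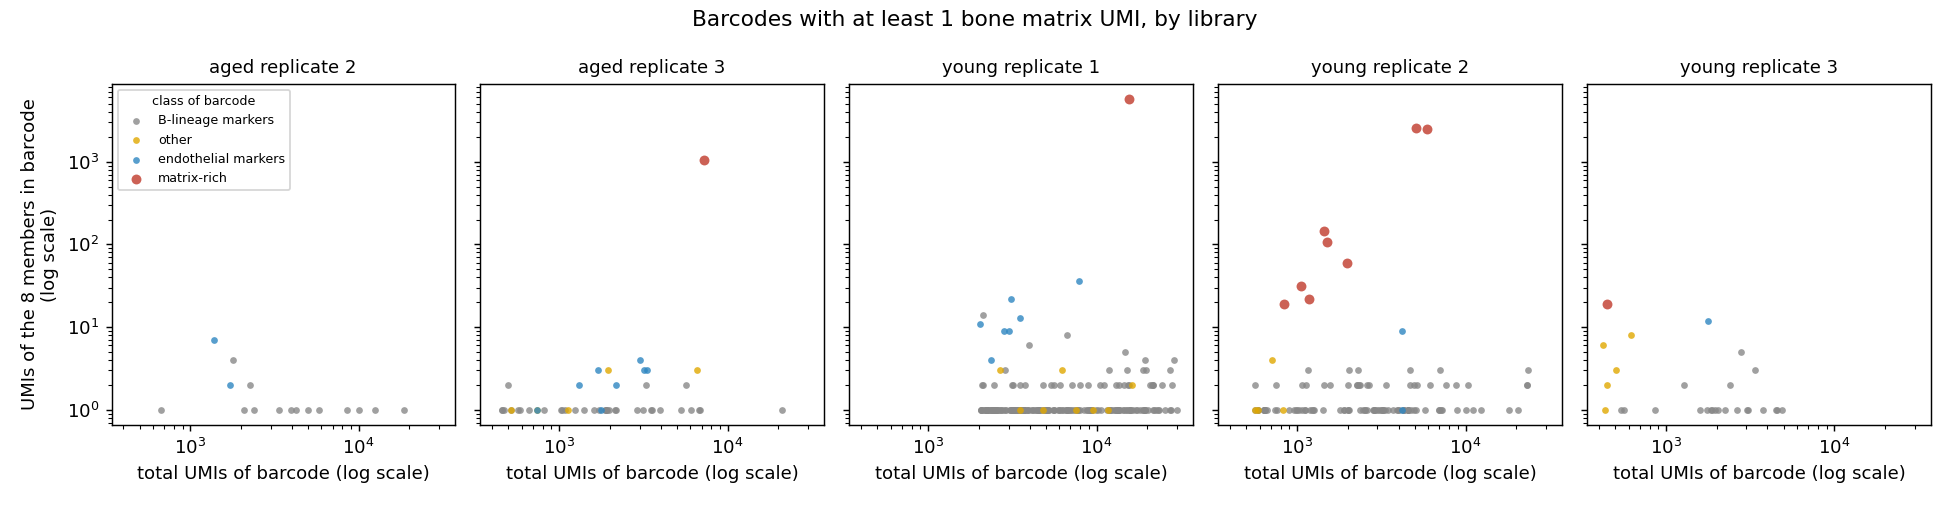
Each point is a barcode with at least 1 UMI of the 8 members, by its total UMIs (x, log scale) and its member UMIs (y, log scale), in 1 panel per library, aged libraries first; colour gives the class of barcode. The 11 matrix-rich barcodes (0 and 1 in the aged, 1, 8 and 1 in the young libraries) stand above the rest, most of which hold 1 UMI.

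The share held by matrix-rich barcodes differed by gene. It was 98.5% for Col1a1, 97.1% for Col1a2, 96.3% for Ibsp, 95.5% for Bglap and 100% of the 34 Postn UMIs. For Sparc, Serpine2 and Spp1 it was lower, at 83.7%, 82.3% and 81.4%. Outside them, with the 5 libraries summed, Sparc was highest in endothelial-marker barcodes and Serpine2 in neutrophil-led ones, while Spp1 was scattered over every library. For Serpine2 this rested on young replicate 1, which gave 29 of the 30 UMIs in neutrophil-led barcodes.

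The single matrix-rich barcode of aged replicate 3 held 7259 UMIs over 2233 genes, 5.75% of them mitochondrial. Osteopontin dominated its matrix transcripts, with 589 Spp1 UMIs. Serpine2 had 204, Ibsp 86, Sparc 74, Col1a1 36, Postn 33, Col1a2 24 and Bglap 5 UMIs, so that all 8 members were found in it. It also held 14 of the 22 listed osteoblast-lineage markers other than members, among them the transcription factor genes Runx2 (2 UMIs), Sp7 (1) and Dlx5 (3), and the parathyroid hormone receptor gene Pth1r (8). It held 3 of the 10 B-lineage markers with 3 UMIs in all.

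The matrix-rich barcode of young replicate 1 had another make-up. Of its 15477 UMIs over 3002 genes, 5.07% mitochondrial, 2051 were Bglap, 1576 Col1a1, 1332 Col1a2, 724 Sparc, 38 Ibsp and 1 Serpine2. It held 0 Spp1 and 0 Postn UMIs; a count of 0 allows up to 3. The near copies Bglap2 and Bglap3 had a further 1097 and 196 UMIs. It held 17 of the 22 osteoblast-lineage markers, with Sp7 at 3 UMIs and Dmp1, a gene of late osteoblasts and osteocytes, at 3. Beside these it held 6 of the 10 B-lineage markers with 19 UMIs, led by Vpreb3 at 8, and doublets were not called here.

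In young replicate 2 the 2 richest barcodes were dominated by type I collagen. The first had 1580 Col1a1, 649 Col1a2, 183 Bglap, 154 Sparc and 5 Ibsp UMIs among 5066, with 967 genes and 18.4% mitochondrial UMIs. The second had 1447 Col1a1, 700 Col1a2, 206 Sparc, 160 Bglap and 1 Postn UMIs among 5921, with 1375 genes and 13.0% mitochondrial UMIs. They held 14 and 17 of the 22 osteoblast-lineage markers and 0 and 2 of the 10 B-lineage markers. The other 6 had 19 to 147 member UMIs and 35.9% to 87.1% mitochondrial UMIs, and in young replicate 3 the only matrix-rich barcode had 9 Bglap, 6 Col1a1 and 4 Sparc UMIs among 447, with 82.1% mitochondrial.

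Spp1 and Serpine2 were high in the aged barcode and at or near 0 in the young ones. Spp1 made up 56.0% of the member UMIs in the aged barcode, against 0 Spp1 UMIs in each of the 10 young ones. Serpine2 made up 19.4% of the aged barcode's member UMIs, against 1 UMI over all 10 young barcodes. Bglap made up 0.476% in the aged barcode, against 35.8% in young replicate 1 and 6.36% to 63.6% over the 8 barcodes of young replicate 2. The ratio of Bglap to Col1a1 UMIs was 0.139 in the aged barcode, against 1.30 in young replicate 1 and 0.116 and 0.111 in the 2 richest barcodes of young replicate 2. On that ratio the aged barcode lay within the young range, with only 5 Bglap and 36 Col1a1 UMIs. The ratio of Col1a1 to Col1a2 UMIs varied less among the 4 deepest barcodes, at 1.50 in the aged one, against 1.18, 2.43 and 2.07 in the young ones. With 1 matrix-rich barcode in the aged libraries, the difference in make-up has no replicate and cannot be told apart from a difference between single cells.

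**Figure D2:**
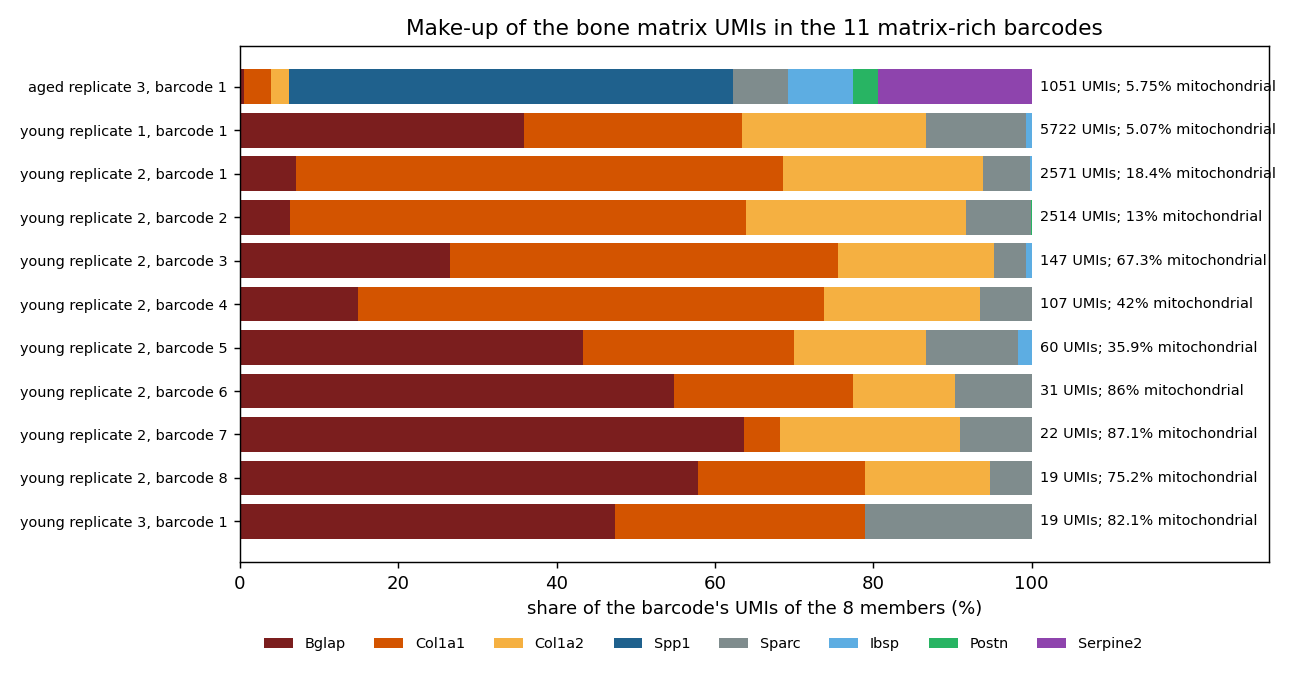
Each bar is 1 matrix-rich barcode, aged on top, split by the share (%) of its member UMIs that each gene contributed; the number of member UMIs and the mitochondrial share stand at the right. Spp1 and Serpine2 fill 56.0% and 19.4% of the aged barcode, while Bglap, Col1a1, Col1a2 and Sparc fill nearly all of the 10 young ones.

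Genes outside the list also differed between these droplets; those given here were chosen after their values were seen. Beside the members, genes with many more UMIs in the aged barcode than in the rest of its library included Tnc, which encodes the matrix glycoprotein tenascin C (46 UMIs, against 5 in all other barcodes of the library), the collagenase gene Mmp13 (54 against 6), the proteoglycan gene Bgn (24 against 1), Pcolce, a helper of collagen maturation (15 against 1), the osteoblast gene Ifitm5 (10 against 0) and the protease gene Ctsk (10 against 2). Ctsk is best known from osteoclasts, and 2 of the 7 listed osteoclast markers, Ctsk and Mmp9, were found in this barcode. In the barcode of young replicate 1 they included Bglap3, Bglap2, the minor fibrillar collagen genes Col11a1 (76 against 3) and Col5a2 (65 against 3), the cartilage collagen gene Col2a1 (51 against 2) and the small proteoglycan gene Dcn (45 against 1). Col11a1 was at 0 in the whole of aged replicate 3, and had 22 and 21 UMIs in the richest 2 barcodes of young replicate 2, against 3 in the barcodes of that library outside the matrix-rich ones. Of 5 osteocyte markers 0 were found in either aged library, against 2 (Dmp1 and Phex, 5 and 7 UMIs in all) in young replicates 1 and 2 and 0 in young replicate 3.

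Over all libraries, 64 barcodes held at least 2 members. The genes whose barcodes overlapped most with these, by Jaccard index (shared barcodes over barcodes of either) across 3384 barcodes, were Bglap3 (0.208), Bglap2 (0.186), the collagen genes Col11a2 (0.137) and Col11a1 (0.119), Bgn (0.130) and Pth1r (0.113). Nupr1 (0.112), Unc5b (0.110), Adamts2 (0.106), which encodes a procollagen peptidase, and Gpc1 (0.102) completed the first 10. All barcodes of a library share its depth, which enters these indices.

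The matrix-rich barcodes held 0% and 94.1% of member UMIs in aged replicates 2 and 3, and 93.7%, 97.3% and 23.8% in young replicates 1, 2 and 3. Bglap stood at 0.975 and 3.81 CPM (UMIs per 1000000 of the library) in aged replicates 2 and 3, against 360.5, 523.7 and 26.9 CPM in young replicates 1, 2 and 3. Both aged libraries were below all young ones. It was the only one of the 8 members with no overlap between the groups; of 8069 genes tested, 3.41% had both aged libraries below all young ones and 12.8% had both above. Nothing is read from this, since the gene was listed with these values known. Bglap2 stood at 0 and 2.29 CPM in the aged libraries, against 192.3, 203.1 and 17.9 CPM in the young ones.

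Col1a1 stood at 0.975 and 28.9 CPM in aged replicates 2 and 3, against 270.5, 3459 and 10.96 CPM in young replicates 1, 2 and 3. Col1a2 stood at 0.975 and 18.3 CPM in the aged libraries, against 231.5, 1569 and 0.997 CPM in the young ones. For both collagen chains the groups overlapped, since aged replicate 3 was above young replicate 3. Sparc stood at 7.80 and 73.9 CPM in the aged libraries, against 148.5, 446.7 and 19.9 CPM in the young ones, with the same overlap.

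Spp1 ran the other way in 1 library. It stood at 12.7 and 470.7 CPM in aged replicates 2 and 3, against 11.5, 5.34 and 19.9 CPM in young replicates 1, 2 and 3. Aged replicate 3 was high and aged replicate 2 lay within the young range. Serpine2 stood at 2.92 and 161.5 CPM in the aged libraries, against 5.59, 0 and 0.997 CPM in the young ones. Ibsp stood at 0 and 68.6 CPM in the aged libraries, against 6.61, 7.48 and 0 CPM in the young ones. Postn stood at 0 and 25.1 CPM in the aged libraries, against 0, 1.07 and 0 CPM in the young ones. For Spp1, Serpine2, Ibsp and Postn alike, the height of aged replicate 3 came from its 1 matrix-rich barcode, which held 95.3%, 96.2%, 95.6% and 100% of that library's UMIs.

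Summed over the 8 members, log2(CPM + 1) was 4.77 and 9.73 in aged replicates 2 and 3, against 10.02, 12.55 and 6.33 in young replicates 1, 2 and 3. The aged mean lay 2.38 below the young mean, and the pooled SD within groups was 3.26. The difference was thus smaller than the spread between libraries of 1 age. Leaving out aged replicate 2 turned it to 0.10, and leaving out young replicate 2 made it -0.92. In such library sums, fewer cells of a type and less RNA per cell cannot be told apart.

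**Figure D3:**
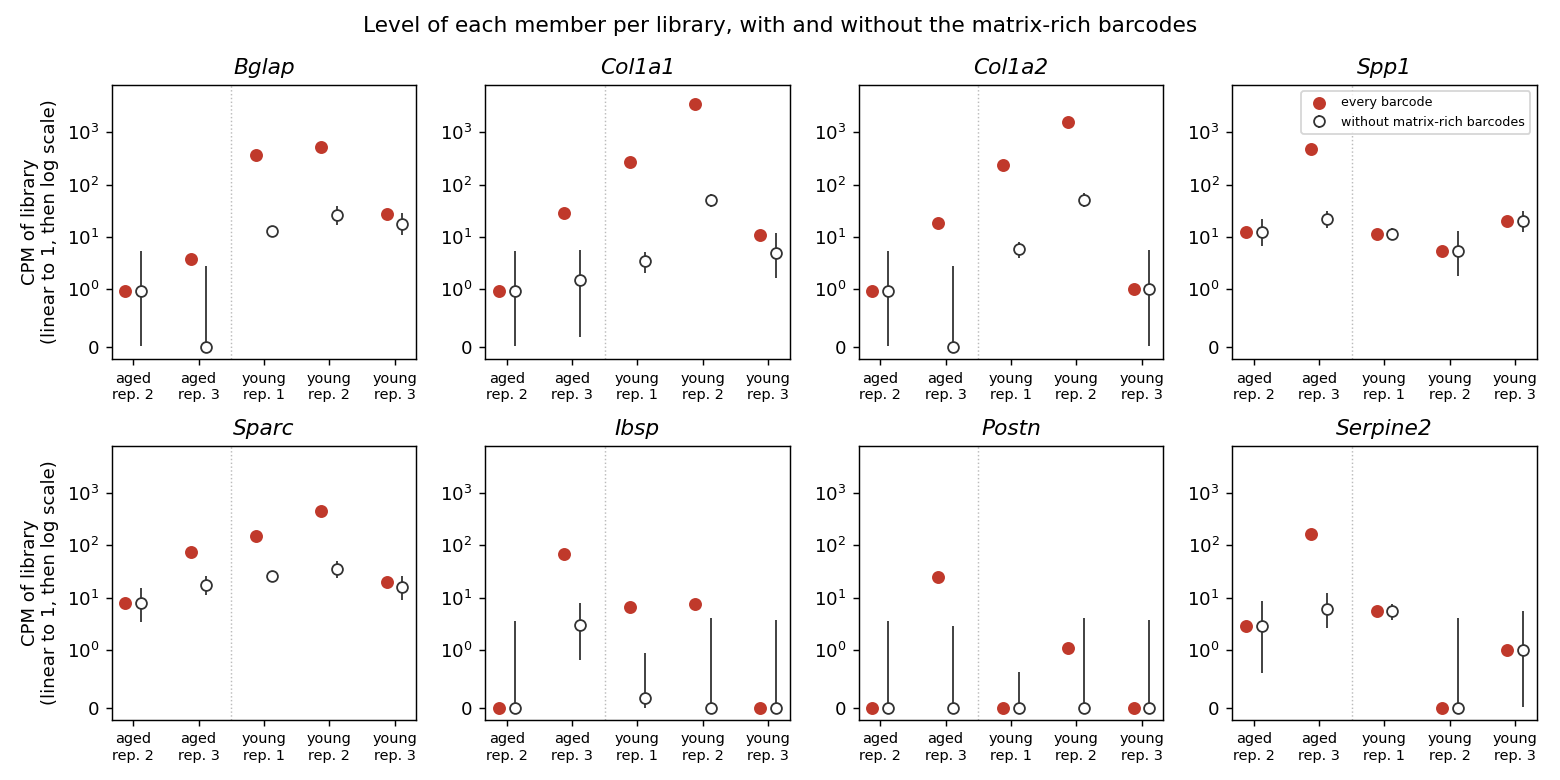
Level of each member in CPM (y, linear to 1 and log scale above) in the 5 libraries, aged left of the dotted line and young right; filled points use every barcode and open points leave out the matrix-rich ones, with 95% exact Poisson intervals for counting error. Col1a1 drops to 1.53 CPM in aged replicate 3 and to 3.40 and 50.2 CPM in young replicates 1 and 2 without those barcodes, and Spp1 drops to 22.2 CPM in aged replicate 3, where it stood at 470.7 CPM with every barcode. Spp1 is at 12.7 CPM in aged replicate 2 and at 11.6, 5.46 and 19.9 CPM in the young libraries with those barcodes left out.

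Across all genes, no age difference passed the test on these sums with a filter on low counts and no block, while some other settings called members. edgeR's quasi-likelihood test with Benjamini-Hochberg adjustment called 0 of 8069 genes (0%). Before adjustment 105 genes had a p under 0.05. By DESeq2 the number called was 2 of 8069 (0.0248%), Bglap and its near copy Bglap3, both lower in aged libraries. With no filter on low counts edgeR called 15 of 16161 genes (0.0928%), and 5 members were among them: Bglap, Col1a1 and Col1a2 lower and Spp1 and Serpine2 higher in aged libraries, together with Mmp13 and Tnc, which led the aged matrix-rich barcode. With the replicate number as a block it called 64 of 8069 genes (0.793%), again 5 members among them: Bglap, Col1a1, Col1a2 and Sparc lower and Spp1 higher. Without young replicate 3 it called 2 of 8207 genes (0.0244%), Bglap and Bglap2, both lower. Without the matrix-rich barcodes it called 0 of 8100 genes, with 106 at a p under 0.05 before adjustment. The members were listed with such values known, so these calls are no independent evidence. Of the members, 5 passed the filter on low counts and Ibsp, Postn and Serpine2 did not. Of the 22 osteoblast-lineage genes other than members, 6 were tested and 0 passed with the low-count filter and no block. With the block Col5a2, Bglap2, Bglap3 and Col11a1 were called, and with no low-count filter Bglap2, Bglap3 and Col11a1, all lower in aged libraries. With the filter and no block, those with the smallest p were measured almost only in young libraries. These were Bglap2 (log2 fold change -6.86, adjusted p = 0.996), Bglap3 (-5.82, 0.996) and Col5a2 (-5.10, 0.996). Matrix-rich barcodes held 95.8% of all Bglap2 and 94.8% of all Bglap3 UMIs.

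For lists of genes that act on or with bone matrix, the fit with the filter and no block could give no call, since it called 0 of 8069 genes. With no low-count filter, Mmp13 and Tnc were called higher and Dcn and Col11a1 lower in aged libraries. The values below are from the fit with the filter and no block. Of 16 collagen-processing genes 5 were tested, 1 with a positive and 4 with a negative difference, and 0 were called (median log2 fold change -0.84, against -0.01 over all genes). Among them the collagen chaperone gene Serpinh1 stood at 0.975 and 17.5 CPM in aged replicates 2 and 3, against 8.98, 39.5 and 3.99 CPM in young replicates 1, 2 and 3, and the groups overlapped. Of 15 matrix receptor genes 6 were tested and 0 called (median 0.15), with Cd44, which encodes a receptor of osteopontin, at 87.7 and 92.2 CPM in the aged libraries, against 130.7, 85.5 and 63.8 CPM in the young ones. Of 7 genes of plasminogen activation only Plaur, the urokinase receptor gene, was tested, and of 16 TGF-beta and BMP genes 7 were tested, with 0 called in either list. The lists of osteocyte, chondrocyte, fibroblast and megakaryocyte markers had 0 tested genes.

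Outside the matrix-rich barcodes the members were found in low numbers in most barcodes that held them. The remaining 691 UMIs lay in 406 barcodes, of which 302 held exactly 1 and the other 104 held 389 in all, 36 at most. The highest count outside was 2 for Col1a1, 5 for Bglap and Col1a2, 8 for Spp1, 2 for Serpine2 and 1 for Ibsp, and 35 for Sparc. Barcodes holding both Bglap and Col1a1 were 5 outside, of 97 with Bglap and 71 with Col1a1. Postn had 0 UMIs outside in every library.

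To see over which cells these molecules were spread, the barcodes outside were divided by their leading markers. Endothelial markers were found in 40, and 150 others had more neutrophil than B-lineage marker UMIs (neutrophil-led). Another 3113 had at least 2 B-lineage marker UMIs and no more neutrophil than B-lineage ones, ties included (B-led). The remaining 70 were in none of these classes. B-led barcodes held 421 of the 691 UMIs, or 50.8 CPM of their own total. That was the lowest level of these classes: neutrophil-led barcodes stood at 58.0 CPM, endothelial-marker ones at 872.7 CPM and the remaining 70 at 268.6 CPM. In B-led barcodes Spp1 had 114 UMIs, Bglap 83, Col1a2 70, Sparc 69, Col1a1 68, Serpine2 12, Ibsp 5 and Postn 0. No such barcode held more than 8 UMIs of any 1 member. The class also took in 1 barcode of young replicate 1 with 27 marrow stroma marker UMIs and 5 B-lineage ones. That barcode held 7 of the Sparc, 5 of the Col1a2, 1 of the Ibsp and 1 of the Serpine2 UMIs.

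Col1a1 was found in B-led barcodes of every library. It was found in 0.270% of 371 B-led barcodes of aged replicate 2 and 0.115% of 873 of aged replicate 3. It was found in 2.14% of 843, 13.9% of 309 and 0.418% of 717 in young replicates 1, 2 and 3. The median depth of those barcodes was 2435 and 929 UMIs in the aged libraries, against 3707, 2341 and 864 UMIs in the young ones. Matrix-rich barcodes held 0 and 36 Col1a1 UMIs in aged replicates 2 and 3, against 1576, 3190 and 6 in young replicates 1, 2 and 3. In CPM, Col1a1 in B-led barcodes stood at 0.991 and 0.806 in aged replicates 2 and 3, against 4.30, 50.9 and 3.12 in young replicates 1, 2 and 3.

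Bglap in B-led barcodes was highest in young replicates 1 and 2, whose matrix-rich barcodes held 2051 and 466 Bglap UMIs. In B-led barcodes it stood at 0.991 and 0 CPM in aged replicates 2 and 3, against 13.1, 27.2 and 3.12 CPM in young replicates 1, 2 and 3. Among barcodes outside the matrix-rich ones with at least 1000 UMIs, 0.350% and 0% held a Bglap UMI in aged replicates 2 and 3, against 6.79%, 6.75% and 0.592% in young replicates 1, 2 and 3. Thinned to 1000 UMIs each, the shares were 0.0410% and 0% in the aged libraries, against 1.56%, 3.08% and 0.326% in the young ones, over 286, 429, 1001, 237 and 338 barcodes. Thinning thus set young replicate 2 above young replicate 1.

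The UMIs in B-led barcodes were also set against those in the matrix-rich barcodes of the same library, as a percentage of them. In aged replicate 3 it was 4.08% for Spp1, 4.05% for Sparc, 4.65% for Ibsp, 3.43% for Serpine2 and 2.78% for Col1a1. In young replicate 1 it was 2.68% for Bglap, 2.64% for Bglap2, 2.03% for Col1a2, 1.14% for Col1a1 and 5.80% for Sparc. In young replicate 2 it was 5.15% for Bglap, 2.89% for Col1a2, 1.41% for Col1a1 and 5.44% for Sparc. In young replicate 3, whose matrix-rich barcode held 19 member UMIs, it was 33.3% for Bglap and 50% for Col1a1 and Sparc. The percentages differed between genes of 1 library: Bglap per Col1a1 was 1.30 in the matrix-rich barcode and 3.06 in the B-led barcodes of young replicate 1, and 0.146 and 0.533 in young replicate 2. How much of this scatter stemmed from RNA of the matrix-rich cells was not tested.

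Bglap was no more frequent in B-led barcodes than in other blood cells of the deepest library. In young replicate 1 it stood at 13.7 CPM in 129 neutrophil-led barcodes (95% exact Poisson interval 8.47 to 20.9, counting error only) and 13.1 CPM in 843 B-led barcodes (9.89 to 17.1). The intervals overlapped widely. By barcodes the shares were 13.2% and 6.05%, at median depths of 11199 and 3707 UMIs. Over the 40 endothelial-marker barcodes Bglap had 0 UMIs, which at their depth allows up to 17.0 CPM (3 counts).

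Spp1 behaved differently from Bglap and the collagens. In B-led barcodes it stood at 12.9 and 19.3 CPM in aged replicates 2 and 3, against 12.4, 5.66 and 20.8 CPM in young replicates 1, 2 and 3. It was thus found in B-led barcodes of every library within 5.66 to 20.8 CPM. Among these libraries, aged replicate 2 had 0 matrix-rich barcodes, and the matrix-rich barcodes of the 3 young ones held 0 Spp1. Spp1 was not confined to B-led barcodes: summed over 5 libraries it stood at 12.6 CPM in neutrophil-led and 13.8 CPM in B-led ones. In aged replicate 3 the neutrophil-led ones stood at 353.7 CPM (114.8 to 825.4), on 5 UMIs in 2 of 10 barcodes. Where these molecules came from was not tested. The barcode just outside the matrix-rich limit, in young replicate 1, held 8 UMIs of Spp1 and 0 of every other member among 6646 UMIs. It had 2 B-lineage and 2 neutrophil marker UMIs, a tie counted as B-led.

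Outside the matrix-rich barcodes, Sparc stood higher in endothelial-marker than in B-led barcodes. In endothelial-marker barcodes it had 150 UMIs in 18 of 40 barcodes, 103 of these UMIs in young replicate 1, or 850.1 CPM (719.5 to 997.5), against 8.33 CPM (6.48 to 10.5) in B-led barcodes. By library, endothelial-marker barcodes stood at 700.2 and 545.7 CPM in aged replicates 2 and 3, against 897.7, 1072 and 1410 CPM in young replicates 1, 2 and 3. Both aged libraries were below the young ones, on 7 and 19 UMIs in the aged libraries, against 103, 9 and 12 UMIs in the young ones. The counting interval of each aged library overlapped that of each young one. In aged replicate 2 and young replicates 2 and 3 these UMIs lay in 1 barcode each, of 5, 2 and 4, and the intervals leave out the spread between cells. How many of all genes had this order in such barcodes was not counted, so nothing is read from it. In young replicate 2, B-led barcodes held more Sparc UMIs (21) than endothelial-marker ones (9). None of the 40 endothelial-marker barcodes held a Col1a1 or Bglap UMI.

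Serpine2 had a place of its own in young replicate 1. Of its 32 UMIs outside the matrix-rich barcode, 29 lay in neutrophil-led barcodes, in 21 of 129, or 18.9 CPM (12.7 to 27.1). In the 843 B-led barcodes of the same library it had 3 UMIs, or 0.716 CPM (0.148 to 2.09). The intervals did not overlap. The other libraries had 2 to 10 neutrophil-led barcodes each, too few to show whether this held there, and Elane and Mpo, genes of early neutrophil precursors, stood at 1213 and 987.2 CPM in young replicate 1 and at most 28.9 and 81.5 CPM in the other 4.

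**Figure D4:**
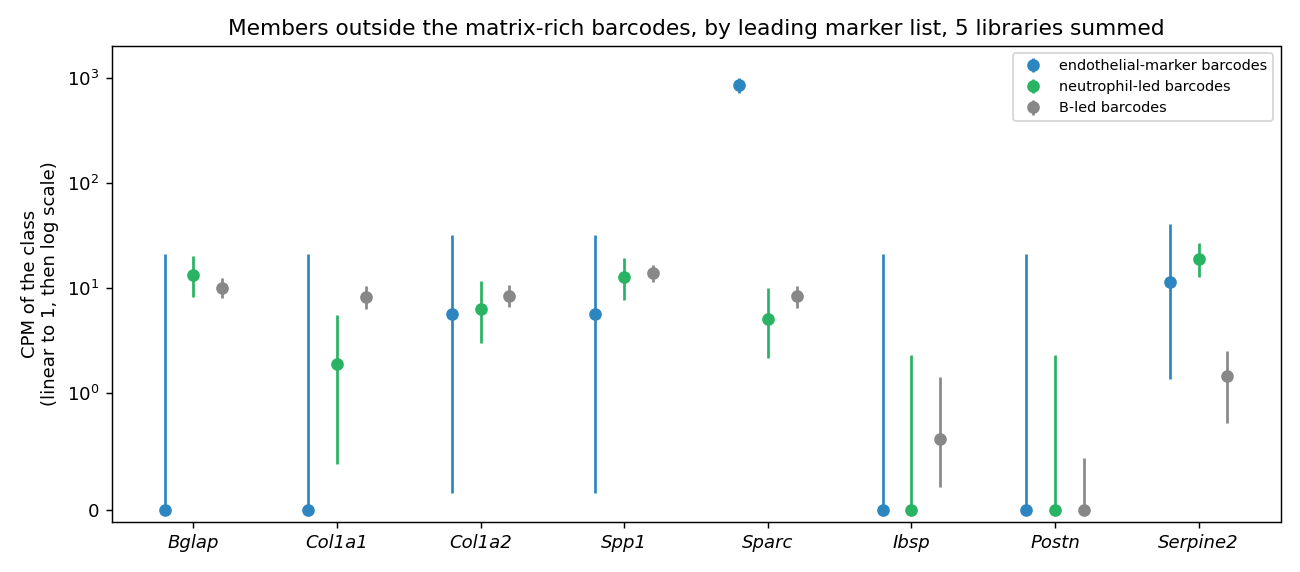
Level (CPM of the class, y, linear to 1 and log scale above) of each member outside the matrix-rich barcodes, in endothelial-marker, neutrophil-led and B-led barcodes summed over 5 libraries, with 95% exact Poisson intervals for counting error. Sparc stands at 850.1 CPM in endothelial-marker barcodes and 8.33 CPM in B-led ones, and Serpine2 at 18.9 CPM in neutrophil-led and 1.45 CPM in B-led ones. Of the 30 Serpine2 UMIs in neutrophil-led barcodes, 29 are from young replicate 1.

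A filter of 500 genes and 1000 UMIs removed different molecules from each library. Barcodes below it held 3.70% and 1.52% of member UMIs in aged replicates 2 and 3, where they held 6.85% and 23.6% of all UMIs. In young replicates 1, 2 and 3 they held 0%, 4.37% and 52.5% of member UMIs, against 0%, 6.95% and 23.4% of all UMIs. The 0% of young replicate 1 was fixed in advance, since none of its deposited barcodes had under 2023 UMIs or under 836 genes. The lowest barcode of each other library had 391 to 562 UMIs. Without the matrix-rich barcodes, those below the filter held 3.70% and 25.8% of member UMIs in the aged libraries, against 0%, 17.5% and 37.7% in the young ones. Of the 27 Bglap UMIs of young replicate 3, 25 were in barcodes below the filter. Of the 11 matrix-rich barcodes 6 passed the filter, 9 had over 10% mitochondrial UMIs, and 2 met both limits.

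Some of the barcodes with Bglap below the filter were rich in mitochondrial transcripts. Of those below it that held Bglap, 4 of 9 in young replicate 2 and 5 of 6 in young replicate 3 had over 50% mitochondrial UMIs, and the other 5 of young replicate 2 had 4.28% to 26.9%. In aged replicates 2 and 3, Bglap was found in 0 of 6 and 0 of 27 barcodes with over 50% mitochondrial UMIs. In young replicates 2 and 3 it was found in 4 of 10 and 5 of 13 such barcodes. Young replicate 1, with no deposited barcode under 2023 UMIs, had 0 of them. Of the ones with Bglap, 4 in young replicate 2 and 1 in young replicate 3 were matrix-rich barcodes described above. Outside the matrix-rich barcodes Bglap was found in 0 of 6 and 4 of 12. The 13 barcodes of young replicate 3 held 24 of its 27 Bglap UMIs. One had 5 Bglap, 6 Bglap2 and 3 Bglap3 UMIs among 422 UMIs over 42 genes, 89.8% mitochondrial. In the 319 and 733 other barcodes of young replicates 2 and 3, Bglap was found in 7.84% and 0.409%.

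**Figure D5:**
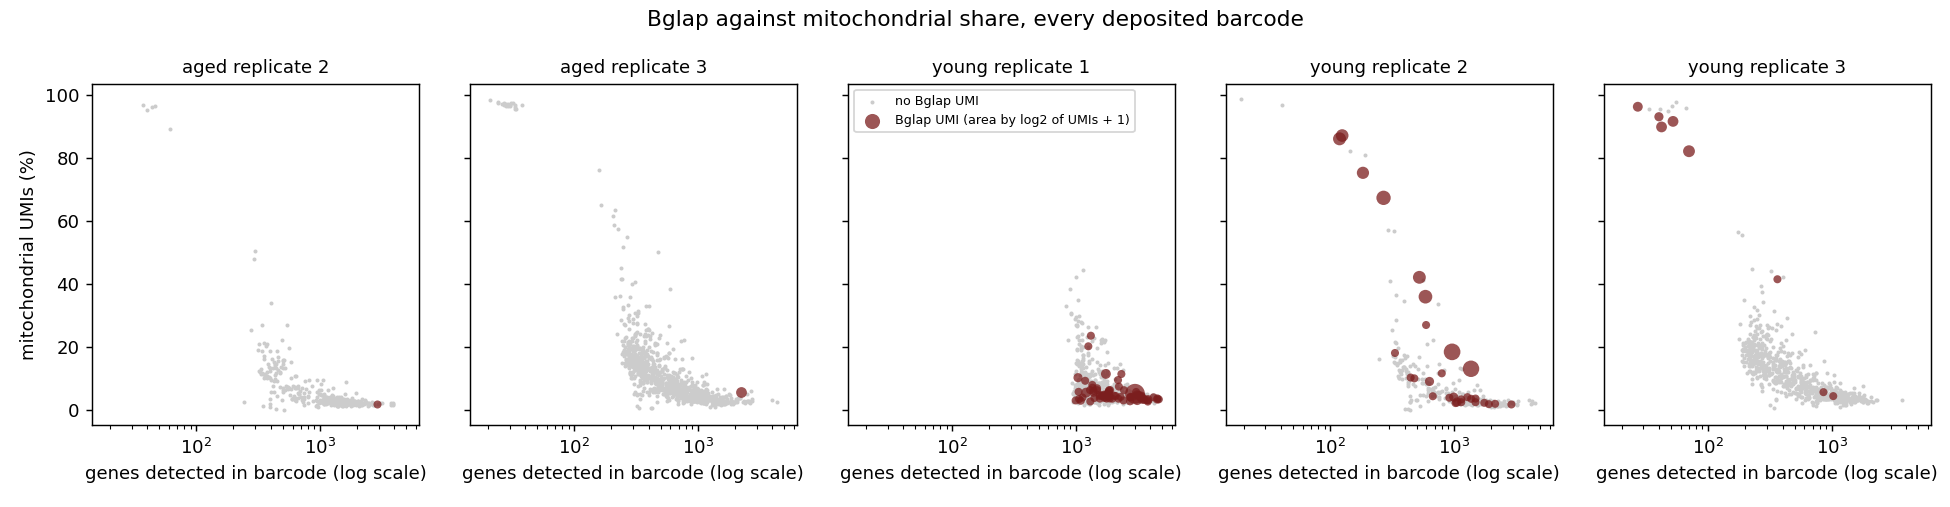
Mitochondrial share of UMIs (%, y) against genes detected (x, log scale) for every deposited barcode, 1 panel per library with the aged ones left; dark points hold Bglap, with area by log2 of its UMIs + 1. In aged replicates 2 and 3 Bglap lies in 0 of 6 and 0 of 27 barcodes over 50% mitochondrial, against 4 of 10 and 5 of 13 in young replicates 2 and 3. Outside the matrix-rich barcodes the counts in young replicates 2 and 3 are 0 of 6 and 4 of 12.

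B-lineage markers by themselves did not separate the matrix-rich barcodes. Barcodes with at least 2 B-lineage markers held 66.7% and 98.5% of member UMIs in aged replicates 2 and 3, and 99.5%, 50.6% and 36.3% in young replicates 1, 2 and 3. Of the 11 matrix-rich barcodes 6 had at least 2 B-lineage markers and so fell in that class, those of aged replicate 3 and young replicate 1 among them. In young replicate 2 the share rested mostly on 1 barcode with 2514 member UMIs and 3 UMIs of 2 B-lineage markers, and was 2.79% with at least 3 markers required. Without the matrix-rich barcodes the shares were 66.7% and 74.2% in the aged libraries, against 92.7%, 95.5% and 47.5% in the young ones. Those barcodes held 98.9% and 96.0% of all UMIs outside the matrix-rich barcodes in the aged libraries, and 96.7%, 98.2% and 96.9% in the young ones.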

How the data were processed

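The values deposited by the authors are raw counts (UMIs) of 27998 Ensembl genes in each barcode. The submitters' processing notes name Cell Ranger, the build mm10, DESeq2 1.22.2, edgeR 3.24.3 and R 3.5.2, without roles. The rule that chose the barcodes is not given in the sources used here. Symbols came from a gene name table (27645 matched) and positions from GENCODE M21.

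Every barcode was used, and doublets were not called. The members, the 19 lists and the tests were chosen with earlier results of these data known. The matrix-rich limit and the leading-marker classes were set after the counts were seen. Per list, up to 3 genes of smallest p were eligible to be named, with the members, Bglap2, Bglap3 and the 10 genes of highest Jaccard index.

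UMIs were added up over the barcodes of each library, since cells are no replicates, and tested with edgeR 4.0.16 in R 4.3.3 (TMM, filterByExpr, quasi-likelihood F test, Benjamini-Hochberg adjusted p under 0.05), with DESeq2 1.42.0 as alternative. The procedure was also run on simulated counts with the same scatter between libraries (dispersion) for every gene. That run does not measure its power or error rate on these library sums. That replicates are separate animals is not stated, so p-values measure the spread between these libraries. CPM is per 1000000 UMIs of the library or class. Intervals are exact Poisson (95%) and cover counting error only. Shares were thinned by expectation to 1000 UMIs. Python 3.11.15 and matplotlib 3.10.9 were used.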

Additional observations from a re-analysis of the deposited data

How the results depend on the processing

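Leaving out young replicate 2 takes 14 of the 21 barcodes with at least 3 members, so every count of such barcodes rests on that library: leaving out 1 library at a time gave 7 to 21. There were 64 with at least 2 members, 11 with at least 4, and 10 without the matrix-rich barcodes, an alternative chosen after seeing the data. The member level of aged minus young libraries (-2.38 on the log2 scale) ranged from -4.86 to 0.10 when 1 library was left out, and turned to 0.10 without aged replicate 2. It was -2.19 with the replicate block, that is, within replicate numbers 2 and 3, and -1.24 without matrix-rich barcodes.

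The count of genes that differed by age (0) was 2 with DESeq2, 15 with no filter on low counts, 0 to 2 with 1 library left out (2 without young replicate 3), and 64 with the replicate block. Numbers 2 and 3 gave 2 pairs only (correlations of deviations 0.395 and 0.167), so they were not taken as pairing. Libraries of the same number did share the most barcode sequences, 11 with number 2 and 9 with number 3, against 0 to 3 for every other pair. Median depths were also alike, at 2389 (aged) and 2282 (young) UMIs with number 2, and 910 and 827.5 with number 3. Whether the numbers mark shared processing is not stated and was not tested. The other alternatives, 42 of 51 in all, kept the direction and stayed within 1.5 times the count or within 1 SD. These SDs were wide, at 3.26 for the member level. They were 28.3 and 22.5 percentage points for the mean shares in B-lineage-marker barcodes (70.3%) and below the filter (12.4%). Large changes thus stayed within 1 SD: the share below the filter was 2.40% without young replicate 3. It was 15.5% without young replicate 1, whose 0% was fixed by the barcodes deposited. Without matrix-rich barcodes 3 members (Bglap, Col1a1, Col1a2) had both aged libraries below all young ones. How many of all genes did so in that setting was not counted, so nothing is read from it. With every barcode it was 3.41% of 8069 genes. For Col1a2 the order rested on 1 UMI each in aged replicate 2 and young replicate 3, at 0.975 and 0.997 CPM. Depth limits the scattered UMIs: 3 counts are 2.92 and 2.30 CPM in aged replicates 2 and 3, against 0.510, 3.27 and 2.99 CPM in young replicates 1, 2 and 3.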

Other observations

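A barcode of young replicate 1 just outside the matrix-rich limit carried 7 of 9 marrow stroma markers with 27 UMIs, among 2117 UMIs over 1292 genes. It held 7 Sparc, 5 Col1a2, 1 Ibsp and 1 Serpine2 UMIs, with 0 Col1a1 and 0 Bglap, and 2 of the 10 B-lineage markers. With 5 B-lineage marker UMIs and 0 neutrophil ones, it was counted as B-led above. It was singled out after its values were seen.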
